A study of Mus musculus with 6 samples.

Results

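Levels of 8 genes used as markers of complement and macrophages were followed across dendritic cells (DCs) sorted from the mouse thymus. The genes were C1qa, C1qb, C1qc, C3, Lyz2, Cd14, Siglec1 and Cd163. They were chosen by symbol, 8 of 23420 in the files, with results of these same libraries already known, including the difference between the YG+ pDC libraries. Their levels are therefore given as a description, with no test. All 8 passed the filter on low counts that left 8141 genes for testing. In 5 of them (C1qa, C1qb, C1qc, C3 and Lyz2) both libraries of thymic Sirpa+ DCs were highest, both YG+ pDC libraries were in between and both PBS pDC libraries were lowest. Cd163 had no such order.

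The study held 3 groups of 2 libraries, all from Wild Type mice and labelled as batch 1. YG+ pDCs are thymic plasmacytoid DCs, gated as CD11c low B220+, that carried yellow-green microspheres (YG). Their mice bore subcutaneous tumours (treatment label MC38_2 weeks with YG, MC38 being a mouse colon carcinoma line), received YG into the tumour at 12 days, and gave thymic cells 2 days after that. PBS pDCs had the same CD11c low B220+ gate and PBS Sirpa+ DCs were CD11c high Sirpa+, both from mice labelled PBS_2 weeks. Bead uptake, injection and tumour all set YG+ pDCs apart from PBS pDCs and cannot be told apart here. Nothing in the labels says whether replicates were separate animals, so the errors and p-values cover the spread between 2 libraries, which may be technical.

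C1q is the recognition molecule of the classical complement pathway, built from A, B and C chains that C1qa, C1qb and C1qc encode. It binds immune complexes and dying cells, and activation ends in cleavage of C3, whose fragments coat the target. Tissue macrophages are a main source of C1q, and thymic macrophages clear the thymocytes that die during selection. Lyz2 encodes the lysozyme of myeloid cells, Cd14 a co-receptor for bacterial lipopolysaccharide, Siglec1 (CD169) a sialic acid receptor of macrophages, and Cd163 a scavenger receptor for haemoglobin bound to haptoglobin.

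Gene totals were 565406 to 713966 counts in YG+ pDCs, 177844 to 413846 in PBS pDCs and 261136 to 525418 in PBS Sirpa+ DCs. These were 0.842% to 3.36% of uniquely placed reads, and why so few fell in genes is not known here, which limits what a count measures. A count of 0 allowed a level of up to 4.21 to 19.1 counts per scaled library size (CPM), taken at 3 counts, and the upper end was PBS pDC replicate 1, the shallowest library. That library also stood apart: its log2 levels correlated at 0.726 with PBS pDC replicate 2 across genes, against 0.934 between the YG+ pDC libraries and 0.855 between the PBS Sirpa+ DC libraries. The summed level of 12 pDC markers was 4456 and 6229 CPM in YG+ pDCs, 6225 and 6417 in PBS pDCs, and 1054 and 1266 CPM in PBS Sirpa+ DCs. Sirpa itself reached 575 and 748 CPM in PBS Sirpa+ DCs, against 198 to 392 CPM in the pDC libraries, a difference from PBS pDCs that did not pass the test (adjusted p = 0.0754). The 11 Sirpa+ conventional DC markers summed to 1701 and 2281 CPM in PBS Sirpa+ DCs and 969 to 1297 CPM in the pDC libraries. Of the 9 tested, 2 were lower in PBS pDCs and 1, Clec10a, was higher (1.95 ± 0.47, adjusted p = 0.0231). Of all genes, 11.4% passed in either direction in that comparison. Type 1 conventional DC markers were present in PBS Sirpa+ DCs too, with Clec9a at 322 and 237 CPM and Xcr1 at 84.6 and 69.8 CPM. Of the 6 tested, 4 were lower in PBS pDCs and 1 was higher, against the same 11.4% of all genes. The 7 of that list summed to 1256 to 1768 CPM in the pDC libraries, where Irf8, which pDCs also express, had 1117 to 1678 CPM, and to 855 and 877 CPM in PBS Sirpa+ DCs.

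C1qa, C1qb and C1qc are neighbours on chromosome 4, all on the minus strand (GRCm38). Because their levels moved together, the 250 bases before the RefSeq transcript start (GRCm38.p6) of the pair with an entry are shown, 5′ to 3′ on the gene's strand. Capitals mark GAGGAA or its reverse complement TTCCTC, the core of sites bound by PU.1, a transcription factor of myeloid cells.
C1qb chr4:136886201-136886450: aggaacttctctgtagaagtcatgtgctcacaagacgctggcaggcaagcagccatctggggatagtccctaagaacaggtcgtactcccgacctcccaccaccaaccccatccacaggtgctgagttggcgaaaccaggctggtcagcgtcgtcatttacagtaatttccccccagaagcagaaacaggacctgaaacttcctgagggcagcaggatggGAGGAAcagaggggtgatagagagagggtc
C1qc chr4:136892915-136893164: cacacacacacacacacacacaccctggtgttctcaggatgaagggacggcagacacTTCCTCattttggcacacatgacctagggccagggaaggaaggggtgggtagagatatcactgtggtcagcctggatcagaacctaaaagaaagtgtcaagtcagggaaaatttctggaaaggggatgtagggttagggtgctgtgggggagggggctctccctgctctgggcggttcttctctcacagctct
The match began 30 bases before the RefSeq start in C1qb and 193 bases before it in C1qc. GENCODE places the C1qc gene at 136889804 to 136893065, which overlaps the window shown. The distances therefore depend on the annotation, and nothing is read from their difference. The same 6 letters, on either strand, occur in 7639 of 32851 RefSeq promoter windows of this length (23.3%). No match was found in the windows of C3, Lyz2, Lyz1 or Cd163. A match is a description of letters only.

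Lyz2 has a near copy, Lyz1, the lysozyme of Paneth cells, beside it on chromosome 10. Their coding sequences (444 bases each, from GENCODE M21) differed at 22 bases, an identity of 95.05%, with a longest shared run of 118 bases. The first 60 bases are shown with the differing bases in capitals, because reads that lie between such differences cannot be assigned to 1 gene.
Lyz2: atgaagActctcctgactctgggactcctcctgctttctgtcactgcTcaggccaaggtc
Lyz1: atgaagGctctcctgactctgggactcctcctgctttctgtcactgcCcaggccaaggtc
Counts of both genes are therefore uncertain to the extent that the submitters' counting split or dropped shared reads.

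The A chain gene C1qa (chromosome 4, 136895917 to 136898803) had 120 and 23 counts in YG+ pDC replicates 1 and 2, 2 and 2 in PBS pDCs, and 106 and 391 in PBS Sirpa+ DCs. Scaled to library size these were 169 and 41.2 CPM, 12.8 and 4.63 CPM, and 449 and 779.6 CPM. No libraries of different groups overlapped. The B chain gene C1qb (136880129 to 136886187) was at 121 and 41.2 CPM in YG+ pDCs, 25.5 and 0 in PBS pDCs, and 322 and 540.3 CPM in PBS Sirpa+ DCs. The C chain gene C1qc (136889804 to 136893065) was at 269.7 and 107 CPM, 57.4 and 6.94 CPM, and 546 and 911 CPM in the same order. All 3 chains thus had the same order of groups, and within YG+ pDCs each was higher in replicate 1. In RNA from bulk sorted cells, a smaller share of cells that carry a transcript and less of it per cell cannot be told apart.

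Fitted log2 fold changes (± standard error, edgeR, 2 libraries a group) of YG+ pDCs over PBS pDCs were 3.85 ± 0.91 for C1qa, 3.35 ± 1.05 for C1qb and 2.90 ± 0.82 for C1qc. PBS pDCs lay below PBS Sirpa+ DCs by larger amounts, with -6.39 ± 0.89, -5.76 ± 1.01 and -4.85 ± 0.84. YG+ pDCs also lay below PBS Sirpa+ DCs, with -2.54 ± 0.62, -2.40 ± 0.70 and -1.95 ± 0.66. The comparisons share libraries, so these values stand side by side and are not independent. The PBS pDC levels rest on 15 and 5 counts over the 3 chains, and C1qb had no count in replicate 2. Without PBS pDC replicate 1, the fitted C1qb value against PBS Sirpa+ DCs was -10.74, set by that zero. Without PBS pDC replicate 2 it was -4.13. YG+ pDCs over PBS pDCs moved likewise without PBS pDC replicate 1 or 2, to 4.45 or 3.07 for C1qa, 8.33 or 1.72 for C1qb and 4.72 or 1.76 for C1qc.

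Per kilobase of exon, the chains can be set against each other. C1qa made up 42.7% and 43.6% of the summed C1q level in PBS Sirpa+ DC replicates 1 and 2, C1qb 29.3% and 28.9%, and C1qc 28% and 27.5%. The proportions in those libraries were nearly alike although their summed levels were 1316 and 2231 CPM. In YG+ pDC replicate 1 (398 counts) the shares were 39.3%, 26.9% and 33.8%, and in replicate 2 (106 counts) 29.8%, 28.4% and 41.8%. C1qc therefore took a larger share in both YG+ pDC libraries than in the PBS Sirpa+ DC libraries, and C1qa a smaller one. No test was made of these shares, and PBS pDCs had too few counts for shares to be read.

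C3 (chromosome 17, 57203970 to 57228136, minus strand), the component on which all complement pathways converge, had 264 and 84 counts in YG+ pDCs, 2 and 14 in PBS pDCs and 138 and 454 in PBS Sirpa+ DCs. Its levels were 371 and 150.3 CPM, 12.8 and 32.4 CPM, and 584 and 905 CPM. The groups did not overlap, and replicate 1 was the lower of the PBS pDC pair, unlike for the C1q chains. The log2 fold change was 3.35 ± 0.64 for YG+ pDCs over PBS pDCs, -4.87 ± 0.66 for PBS pDCs against PBS Sirpa+ DCs and -1.51 ± 0.52 for YG+ pDCs against PBS Sirpa+ DCs. The first value was 4.37 without PBS pDC replicate 2. Against the PBS Sirpa+ DC mean, C3 reached 49.8% and 20.2% in the YG+ pDC libraries, a higher percentage than any C1q chain reached in the same library.

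Lyz2 (chromosome 10, 117277331 to 117282321, minus strand) was the most abundant of the 8 genes per kilobase of exon in every library. Its level was 559 and 229 CPM in YG+ pDCs, 134 and 27.8 in PBS pDCs, and 1473 and 2546 CPM in PBS Sirpa+ DCs. The groups kept the order of the C1q chains without overlap. YG+ pDCs exceeded PBS pDCs by a log2 fold change of 2.44 ± 0.73 and lay below PBS Sirpa+ DCs with -2.35 ± 0.66, and PBS pDCs lay below PBS Sirpa+ DCs with -4.78 ± 0.78. Without PBS pDC replicate 1 or 2, YG+ pDCs over PBS pDCs gave 3.81 or 1.60. The near copy Lyz1 had 10 and 5 counts in YG+ pDCs, none in PBS pDCs and 16 and 41 in PBS Sirpa+ DCs. Taking 3 counts over the PBS pDC pair as the floor, Lyz1 was at least 2.32-fold higher in YG+ pDCs and at least 15.2-fold lower in PBS pDCs than in PBS Sirpa+ DCs.

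Cd14 (chromosome 18, 36725067 to 36726798, minus strand) had 34 and 5 counts in YG+ pDCs, 0 and 5 in PBS pDCs and 25 and 64 in PBS Sirpa+ DCs. In CPM these were 47.8 and 8.95, 0 and 11.6, and 106 and 128. The YG+ pDC and PBS pDC libraries overlapped, because YG+ pDC replicate 2 lay below PBS pDC replicate 2. The log2 fold change of YG+ pDCs over PBS pDCs was 1.82 ± 0.96 with all libraries and 0.20 without YG+ pDC replicate 1. It was 6.69 without PBS pDC replicate 2, which leaves a library with no count. Both PBS pDC libraries lay below both PBS Sirpa+ DC libraries, with -3.82 ± 0.89, and so did both YG+ pDC libraries, with -2.0 ± 0.67.

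Siglec1 (chromosome 2, 131069220 to 131086765, minus strand) had 39 and 7 counts in YG+ pDCs, 0 and 1 in PBS pDCs and 13 and 14 in PBS Sirpa+ DCs. YG+ pDC replicate 1, at 54.8 CPM, was as high as the higher PBS Sirpa+ DC library (55.0 CPM), and YG+ pDC replicate 2, at 12.5 CPM, lay below the lower one (27.9 CPM). Siglec1 was the only one of the 8 genes for which YG+ pDCs and PBS Sirpa+ DCs overlapped. Over each group's summed counts, YG+ pDCs had 21.3 times the level of PBS pDCs (95% exact interval for counting error 3.64 to 860.1) and 0.989 times that of PBS Sirpa+ DCs (0.602 to 1.65). The fitted log2 fold change over PBS pDCs was 3.76 without PBS pDC replicate 1 and 6.92 without replicate 2, which leaves a library with no count. The second ratio takes the side of YG+ pDC replicate 1: without YG+ pDC replicate 2 the fitted log2 fold change was 0.44 ± 0.86, and without YG+ pDC replicate 1 it was -1.68.

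Cd163 (chromosome 6, 124304656 to 124330527, plus strand) went another way. It had 94.1 and 50.1 CPM in YG+ pDCs, 287 and 71.7 in PBS pDCs, and 169 and 136 CPM in PBS Sirpa+ DCs. The highest and the lowest of the 4 PBS libraries were both PBS pDCs, so PBS pDCs overlapped both other groups, and YG+ pDCs lay below PBS Sirpa+ DCs without overlap. The log2 fold change of YG+ pDCs against PBS pDCs was -1.22 ± 0.61 and became 0.02 ± 0.48 without PBS pDC replicate 1, the library that stood apart. PBS pDCs against PBS Sirpa+ DCs gave 0.16 ± 0.61 with all libraries and -1.06 ± 0.48 without that replicate. YG+ pDCs against PBS Sirpa+ DCs gave -1.06 ± 0.60.

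**Figure D1:**
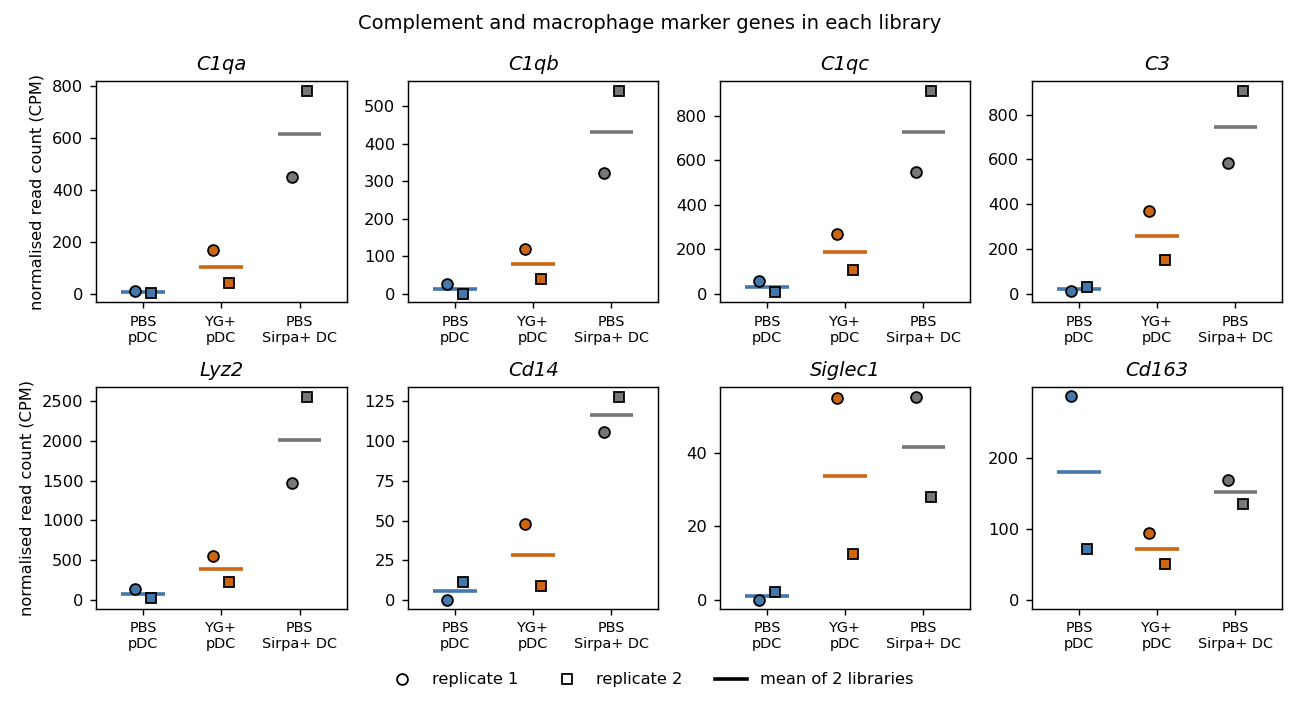
Normalised read count (CPM, linear axis scaled to each gene) of the 8 genes in each library, with circles for replicate 1, squares for replicate 2 and a bar for the mean of 2 libraries. C1qa, C1qb, C1qc, C3 and Lyz2 climb from PBS pDC to YG+ pDC to PBS Sirpa+ DC without overlap, whereas the highest Cd163 value, 287 CPM, is in PBS pDC replicate 1.

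Counted over the 8 genes, YG+ pDCs were higher than PBS pDCs in both libraries without overlap in 6, a pattern that 26.5% of all genes tested showed. PBS pDCs were lower than PBS Sirpa+ DCs without overlap in 7, against 24.2% of all genes, and YG+ pDCs were lower than PBS Sirpa+ DCs in 7, against 29.1%. Since the genes were chosen with these differences known, nothing is read from these counts. The exceptions were Cd14 and Cd163 in the first comparison, Cd163 in the second and Siglec1 in the third.

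Relative to the PBS Sirpa+ DC mean, the 3 C1q chains together reached 31.5% and 10.7% in YG+ pDC replicates 1 and 2, and 5.39% and 0.652% in PBS pDC replicates 1 and 2. The percentage in YG+ pDC replicate 1 ran from 27.5% for C1qa to 49.8% for C3 among the 6 genes other than Siglec1 and Cd163. In YG+ pDC replicate 2 the same genes ran from 6.70% for C1qa to 20.2% for C3. Siglec1 reached 132% and 30.2%, the highest of the 7 genes other than Cd163 in both libraries. Levels relative to Sirpa+ DCs thus differed between genes within 1 library as well as between libraries.

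**Figure D2:**
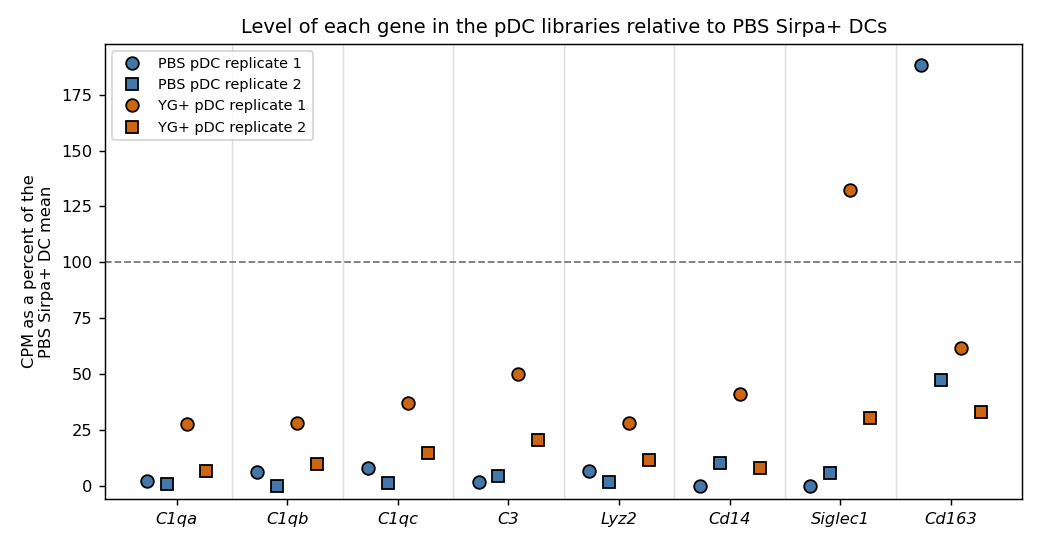
Level of each gene in the 4 pDC libraries as a percentage of its mean in the 2 PBS Sirpa+ DC libraries (linear axis, dashed line at 100%; orange, YG+ pDC; blue, PBS pDC; circles, replicate 1; squares, replicate 2). YG+ pDC replicate 1 lies above replicate 2 for every gene, and the values above 100% are Siglec1 in YG+ pDC replicate 1 (132%) and Cd163 in PBS pDC replicate 1 (188%).

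The YG+ pDC libraries differed from each other in all 8 genes, and replicate 1 was the higher each time. The ratio of replicate 1 to replicate 2, with 95% exact intervals for counting error, was 4.10 (2.61 to 6.71) for C1qa, 2.94 (1.84 to 4.87) for C1qb and 2.51 (1.87 to 3.42) for C1qc. It was 2.47 (1.92 to 3.19) for C3 and 2.44 (2.0 to 3.0) for Lyz2. It was 5.34 (2.08 to 17.5) for Cd14, 4.37 (1.93 to 11.6) for Siglec1 and 1.88 (1.19 to 3.03) for Cd163. None of these intervals included 1, and the genes were noted for this difference, so it is a description of these libraries.

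Most genes differed far less between the YG+ pDC libraries. The log2 ratio of replicate 1 to replicate 2 lay between -0.79 and 0.86 for the middle 90% of the 8141 genes, with a median of -0.02. The 8 genes ran from 0.85 for Cd163, just inside that range, to 1.95 for Cd14, and all but Cd163 lay above it. Among all genes, 45 (0.553%) were more than 3-fold higher in replicate 1, and C1qa, Cd14 and Siglec1 were 3 of them. Another 23 genes were more than 3-fold higher in replicate 2, with none of the 8 among them. Other macrophage genes went the same way: 19 of the 22 tested were higher in replicate 1, with a median log2 ratio of 0.84. All 12 pDC markers were lower in replicate 1, with a median of -0.50. Their part in the difference between the libraries was not tested.

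The other pairs gave a different picture. In PBS Sirpa+ DCs, replicate 1 was the lower one for C1qa, C1qb, C1qc, C3 and Lyz2, with ratios of 0.575 to 0.645. In PBS pDCs the ratio was 4.0 (2.48 to 6.54) for Cd163, 4.82 (2.27 to 10.8) for Lyz2 and 8.27 (2.06 to 47.5) for C1qc. For C3, on 2 and 14 counts, it was 0.394 (0.0434 to 1.71), so that direction was not resolved at this depth. Over all genes the PBS pDC pair spread most, with 729 genes more than 3-fold higher in replicate 1.

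**Figure D3:**
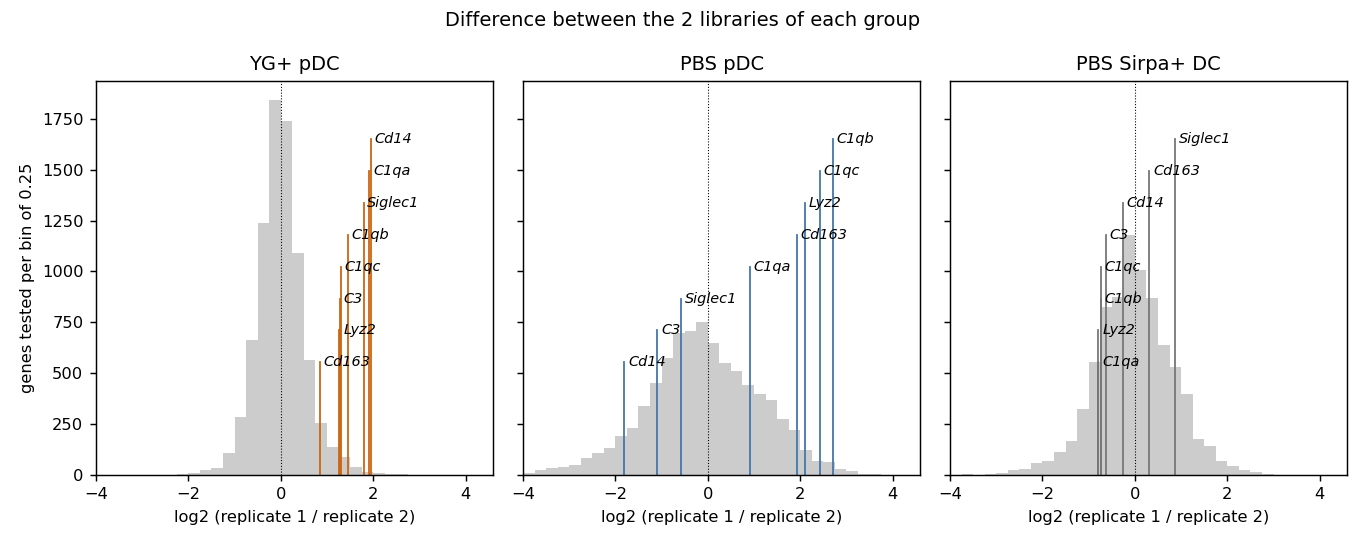
Log2 ratio of replicate 1 to replicate 2 in each group (x axis, from log2 CPM with a prior count of 2) against the number of tested genes per bin of 0.25 (grey bars), with 1 line for each of the 8 genes, whose height only spaces the labels. In YG+ pDCs the lines run from 0.85 (Cd163) to 1.95 (Cd14), to the right of most genes, and in the PBS pairs they lie on both sides of 0.

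Leaving out 1 YG+ pDC library showed how far the group values rest on this pair. Without replicate 1, the log2 fold change of YG+ pDCs over PBS pDCs was 2.48 for C1qa, 2.30 for C1qb, 2.03 for C1qc, 2.59 for C3, 1.63 for Lyz2 and 2.72 for Siglec1, smaller than with both libraries but still above 0. Against PBS Sirpa+ DCs, C1qa went from -2.54 to -3.92 without replicate 1 and to -1.88 without replicate 2. Lyz2 went to -3.16 and -1.85. The direction was the same with either library for every gene but Siglec1.

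Likeness to the mean C1q profile over the 6 libraries was measured with Pearson's r on log2 CPM among the 8061 genes whose mean reached 20 CPM in any group. The libraries form 3 groups, so r mostly follows differences between groups and carries no test. Lyz2 came first outside the C1q chains (r = 0.999), followed by Nagpa (0.992), Jup (0.989), Prdm1 (0.988), Fzd7 (0.987), Csf1r (0.987), Sgk1 (0.986), Fn1 (0.986), Dusp3 (0.984) and Niacr1 (0.983). Of these, Csf1r had 184 and 100.2 CPM in YG+ pDCs, 25.5 and 11.6 in PBS pDCs and 546 and 803 CPM in PBS Sirpa+ DCs, the order of the C1q chains at like levels. The other members were less alike, with 0.904 for C3, 0.829 for Siglec1, 0.827 for Cd14 and 0.24 for Cd163.

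To see whether other genes of these pathways moved with the 8, 126 related genes in 9 lists were examined, of which 59 passed the filter and were tested by edgeR's quasi-likelihood test with Benjamini-Hochberg adjustment over all 8141 genes. Between YG+ pDCs and PBS pDCs, 0 of the 59 passed an adjusted p of 0.05, where 0% of all genes did. The smallest adjusted p of any gene was 0.235, and 929 genes had an unadjusted p under 0.05. DESeq2 called 111 genes there, 3 of them related (Apoe, Csf1r and Ctsd, all higher in YG+ pDCs). Between PBS pDCs and PBS Sirpa+ DCs, 26 of the 59 passed (44.1%, 4 higher and 22 lower in pDCs), against 11.4% of all genes. Between YG+ pDCs and PBS Sirpa+ DCs, 12 passed (20.3%, 4 higher and 8 lower), against 7.16% of all genes.

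Other complement components were sparse. Of the 14 genes of the classical and lectin pathways beyond C1q, 1 passed the filter, and 6 had no count in any library: C1rb, C1s1, C1s2, Masp1, Mbl1 and Colec11. The gene that passed was Masp2, a serine protease of the lectin pathway, at 230.4 and 374 CPM in YG+ pDCs, 1097 and 279.99 in PBS pDCs and 237 and 152 CPM in PBS Sirpa+ DCs. Its value is uncertain, since 54.9% of its exon length lies under exons of Tardbp on the other strand and whether the counting used strand is not known here. C1ra, for the protease that C1q activates, had 0 to 2 counts per library, beside up to 457 counts of C1qc.

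Of the alternative and terminal pathways, 2 of 10 genes passed the filter. Cfb, which forms the C3 convertase of the alternative pathway, had 33.7 and 25.1 CPM in YG+ pDCs, 63.8 and 34.7 in PBS pDCs and 148 and 221 CPM in PBS Sirpa+ DCs. Cfb was lower than in PBS Sirpa+ DCs both in PBS pDCs (log2 fold change -2.02 ± 0.49, adjusted p = 0.0233) and in YG+ pDCs (-2.65 ± 0.47, adjusted p = 0.00793). Between the pDC groups its log2 fold change was -0.63 ± 0.52, the sign opposite to that of C3. Cfp, the properdin that steadies this convertase, was at 63.8 to 109 CPM in all libraries and passed no test. The first Cfb call was lost without PBS pDC replicate 2 or either PBS Sirpa+ DC library, and the second without YG+ pDC replicate 2 or PBS Sirpa+ DC replicate 2.

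One of 16 complement regulators passed the filter: Clu, an inhibitor of the membrane attack complex. It was lower in PBS pDCs, with 0 and 1 counts, than in PBS Sirpa+ DCs, with 6 and 21 (adjusted p = 0.0400). The call was lost in 5 fits with a library left out, and Clu fell below the filter without PBS Sirpa+ DC replicate 2. Of 11 complement receptors, 7 passed the filter and 2 were lower in PBS pDCs than in PBS Sirpa+ DCs, as were 6.89% of all genes. C3ar1, the receptor for the C3 fragment C3a, had 43.5 and 34.0 CPM in YG+ pDCs, 38.3 and 9.26 in PBS pDCs and 118 and 95.7 CPM in PBS Sirpa+ DCs (-2.46 ± 0.64 for PBS pDCs against PBS Sirpa+ DCs, adjusted p = 0.0306). Lrp1, an endocytic receptor that takes part in clearance of C1q-coated cells, had 285 and 104 CPM, 70.2 and 53.2 CPM, and 292 and 277 CPM (-2.24 ± 0.55, adjusted p = 0.0246). Lrp1 in YG+ pDC replicate 1 was at the level of PBS Sirpa+ DCs. Both calls were lost without PBS pDC replicate 2 or either PBS Sirpa+ DC library. The integrin chain Itgb2, part of complement receptors 3 and 4, was at 284 to 407 CPM in all libraries.

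Of the 30 other macrophage genes, 22 passed the filter. In PBS pDCs 13 were lower than in PBS Sirpa+ DCs (59.1%) and none was higher, with a median log2 fold change of -2.63, where 6.89% of all genes were lower and the median of all genes was 0.08. In YG+ pDCs 4 were lower than in PBS Sirpa+ DCs (18.2%), with a median of -0.65, where 4.09% of all genes were lower. YG+ pDCs exceeded PBS pDCs with a median of 1.41, where the median of all genes was 0.0758. Of the 22, 15 were higher without overlap, as were 26.5% of all genes. Another 2 were lower without overlap, a count for which the share of all genes was not taken. The 4 genes lower in YG+ pDCs than in PBS Sirpa+ DCs were Csf1r, Cx3cr1, Lgals3 and Aif1, all lower in PBS pDCs too.

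Csf1r, through which macrophage growth factors act and of whose exon length 15.1% lies under Hmgxb3, was lower in PBS pDCs than in PBS Sirpa+ DCs (-5.36 ± 0.63, adjusted p = 8.11e-04) and in YG+ pDCs (-2.24 ± 0.48, adjusted p = 0.0180). Its groups kept the order of the C1q chains without overlap. The YG+ pDC calls of Csf1r, Cx3cr1 and Aif1 were each lost when any 1 YG+ pDC or PBS Sirpa+ DC library was left out.

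Cx3cr1, the fractalkine receptor, had 19.7 and 21.5 CPM in YG+ pDCs, 0 and 13.9 in PBS pDCs and 144 and 169 CPM in PBS Sirpa+ DCs, the group order of the C1q chains without overlap, but with the YG+ pDC libraries alike. It was lower than in PBS Sirpa+ DCs in PBS pDCs (-3.99 ± 0.66, adjusted p = 0.00391) and in YG+ pDCs (-2.92 ± 0.53, adjusted p = 0.00932). Aif1, an actin-binding protein of macrophages, was at 35.1 and 23.3 CPM, 6.38 and 6.94 CPM, and 102 and 122 CPM, lower in PBS pDCs (-4.0 ± 0.64, adjusted p = 0.00311) and YG+ pDCs (-1.92 ± 0.46, adjusted p = 0.0283). The lysosomal protease Ctsd and the receptor tyrosine kinase Axl were called lower in PBS pDCs (-2.78 ± 0.51, adjusted p = 0.00645, and -2.58 ± 0.49, adjusted p = 0.00762). For YG+ pDCs against PBS Sirpa+ DCs they gave -0.92 ± 0.46 and -1.21 ± 0.44. Whether those effects differ was not tested.

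Macrophage genes at high level that passed no test were Ctsb, a lysosomal protease, at 563 to 1176 CPM, Tyrobp, a signalling adaptor, at 193 to 938 CPM, and Pltp, a lipid transfer protein, at 185 to 434 CPM (uncertain, with 19.3% of its exon length under exons of Ctsa). Tyrobp and Pltp were higher in every pDC library than in PBS Sirpa+ DCs, opposite to C1q. Trem2 had no count in any library. Summed over the 30 genes, the level was 6877 and 4151 CPM in YG+ pDCs, 3310 and 2946 in PBS pDCs and 6609 and 10020.5 CPM in PBS Sirpa+ DCs, with 29 and 25, 20 and 19, and 25 and 28 genes detected. Of these sums Apoe alone held 2777 and 1134 CPM, 670 and 569 CPM, and 2471 and 4185 CPM.

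**Figure D4:**
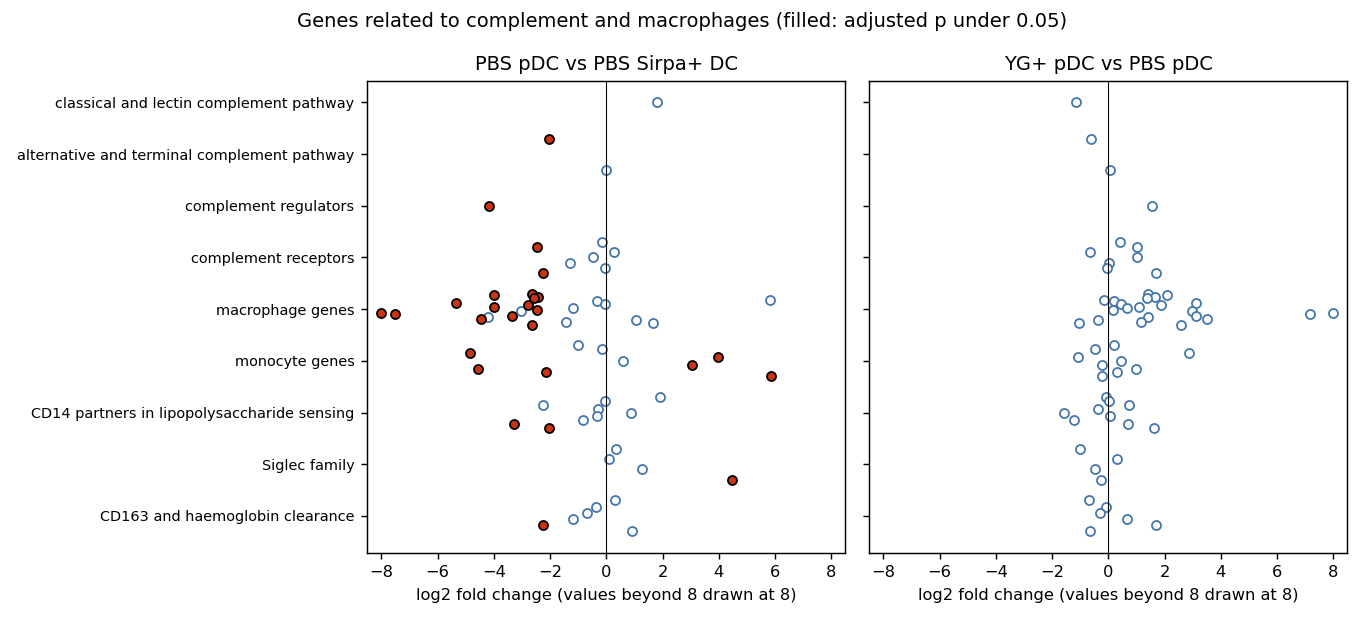
Log2 fold change (x axis) of each tested related gene, by list, for PBS pDC against PBS Sirpa+ DC (left) and YG+ pDC against PBS pDC (right), with filled points where the adjusted p was under 0.05 and values beyond 8 in size drawn at 8. On the left 26 points are filled, 22 of them below 0, and on the right none is filled while the macrophage genes have a median of 1.41.

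Monocyte genes split. In PBS pDCs 3 of the 9 tested were higher and 3 lower than in PBS Sirpa+ DCs, and in YG+ pDCs 3 were higher and 2 lower, where 11.4% and 7.16% of all genes were called in either direction. Ly6c2 and Plac8, which pDCs also express, were higher in both pDC groups, with Ly6c2 at 201 to 631 CPM in the pDC libraries and 12.7 and 41.9 CPM in PBS Sirpa+ DCs (adjusted p = 0.0024 for PBS pDCs and 0.0136 for YG+ pDCs). S100a4 and S100a6, calcium-binding proteins, were lower in both pDC groups, with S100a4 at 46.4 and 28.6 CPM in YG+ pDCs, 51.0 and 2.31 in PBS pDCs and 406 and 486 CPM in PBS Sirpa+ DCs. Fn1, fibronectin, was lower in PBS pDCs, with 1 and 1 counts, than in PBS Sirpa+ DCs, with 21 and 63 (adjusted p = 0.00609). YG+ pDCs, with 29 and 7 counts, gave -1.98 ± 0.57 against PBS Sirpa+ DCs (adjusted p = 0.0613).

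Among the partners of CD14, 2 of 9 tested were lower in PBS pDCs than in PBS Sirpa+ DCs, as were 6.89% of all genes. Tlr2, a receptor for bacterial lipoproteins that CD14 assists, had 59.0 and 21.5 CPM in YG+ pDCs, 6.38 and 34.7 in PBS pDCs and 220.03 and 265 CPM in PBS Sirpa+ DCs. It was lower in PBS pDCs (-3.28 ± 0.65, adjusted p = 0.00895) and in YG+ pDCs (-2.57 ± 0.56, adjusted p = 0.0201). Traf6, a ubiquitin ligase of this signalling route, was lower in PBS pDCs (-2.04 ± 0.53, adjusted p = 0.0297), with 98.3 and 111 CPM in YG+ pDCs, 12.8 and 46.3 in PBS pDCs and 157 and 128 CPM in PBS Sirpa+ DCs. Tlr4, the lipopolysaccharide receptor itself, was too low to test, at 4.63 to 31.9 CPM.

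In the Siglec family, Siglech, a pDC receptor, was higher in PBS pDCs (log2 fold change 4.45 ± 0.49, adjusted p = 7.90e-04) and in YG+ pDCs (4.19 ± 0.49, adjusted p = 0.00137) than in PBS Sirpa+ DCs, the opposite of Siglec1 in PBS pDCs. Siglech in YG+ pDC replicates 1 and 2 was 670.01 and 979 CPM, so the library with more Siglec1 had less Siglech. Cd33, Siglecg and Cd22 passed no test. Of 6 tested genes of haemoglobin clearance, the route that Cd163 feeds, Lrp1 alone was called (16.7%). Lrp1 was lower in PBS pDCs than in PBS Sirpa+ DCs, as were 6.89% of all genes. The ferritin chains Fth1 (1715 to 2951 CPM) and Ftl1 (812 to 2020 CPM) passed no test.

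Of the 26 related calls between PBS pDCs and PBS Sirpa+ DCs, 7 were made whichever library was left out, among them Csf1r, Cx3cr1, Aif1, Ly6c2 and Siglech. Without PBS Sirpa+ DC replicate 2, 8 of the 26 remained, and without PBS Sirpa+ DC replicate 1, 15. Of the 12 calls between YG+ pDCs and PBS Sirpa+ DCs, 2 remained in every fit, Siglech among them, 4 remained without YG+ pDC replicate 2, 3 without PBS Sirpa+ DC replicate 1 and 2 without PBS Sirpa+ DC replicate 2.

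Markers of other cell types were set beside these values. The summed level of the 12 neutrophil markers found in the files was 109.6 and 111 CPM in YG+ pDCs, 51.0 and 13.9 in PBS pDCs and 29.6 and 51.8 CPM in PBS Sirpa+ DCs. The neutrophil sums were alike in the YG+ pDC libraries, while single markers went either way. In YG+ pDC replicates 1 and 2 Csf3r had 28.1 and 12.5 CPM and Ngp 26.7 and 39.4 CPM. The 7 B cell markers summed to 667 and 573 CPM in YG+ pDCs, 497 and 548 in PBS pDCs and 21.2 and 21.9 CPM in PBS Sirpa+ DCs. The 11 thymic epithelial markers summed to 60.4 and 53.7 CPM, 6.38 and 23.1 CPM, and 135 and 154 CPM, with Foxn1, Krt14 and Cldn4 at 0 in every library. Epcam alone held 118 and 102 CPM of the PBS Sirpa+ DC sums. In YG+ pDCs Epcam had 23.9 and 17.9 CPM and Aire 23.9 and 19.7 CPM. The 11 T cell and thymocyte markers summed to 563 and 705 CPM, 568 and 611 CPM, and 161 and 163 CPM, with Cd3g and Ptcra at 0 in every library. Cd4, Cd8a and Cd8b1 held most of each sum, at 287, 81.5 and 147 CPM in YG+ pDC replicate 1. Lck had 23.9 to 70.2 CPM in the pDC libraries. Over all libraries Cd3e was at 0 to 5.37 CPM, Cd3d at 0 to 25.4 CPM and Themis at 0 to 1.99 CPM. The part of macrophages or other cells in the sorted populations in these differences was not tested.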

How the data were processed

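The authors deposited 1 file of raw counts per library, with a whole number of reads for every gene symbol and no normalisation. TRIzol RNA (5 ng) entered the Ovation SoLo RNA-Seq Mouse kit, per the labels' protocols. The submitters' processing notes name bcl2fastq 2.17 and mm10. Sources used here do not name the aligner, the counter, its annotation or its use of strand. The 5 summary lines per file that name no gene (97.7% to 99.5% of records) stayed out of library sizes and tests. Reads in genes were 0.842% to 3.36% of uniquely placed reads. The reason for this low share was not tested. With the annotation and the use of strand not known, the counts may hold only part of the reads of a gene.

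Genes passing edgeR's filterByExpr (8141) were scaled by TMM and tested by quasi-likelihood (edgeR 4.0.16, R 4.3.3, glmQLFit then glmQLFTest) in 1 fit of all 6 libraries, with Benjamini-Hochberg adjustment over all of them and a threshold of 0.05. CPM are counts scaled to the TMM library size. Intervals and floors (3 counts) cover counting error only. The fit was also run on simulated counts, whose outcome is not given here and is not used as support for the calls.

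The 8 genes, the lists and the rule for named genes were chosen with earlier results of these data known. The rule took up to 6 called and 3 uncalled genes of each related list, and the 10 most like C1q. Some genes that it takes are left out of the text. Lists came to 126 related genes, all in the files, some under older symbols (Adgre1 as Emr1), and marker lists, in which Ly6g was not matched. Gene coordinates and exon lengths came from GENCODE M21 (GRCm38). No member lies under an exon of the opposite strand. Libraries of a group differed beyond sampling noise (chi-square per degree of freedom 2.76 to 11.9), so none was counted as a duplicate. Alternatives were no filter, a filter at 10 CPM in 2 libraries, DESeq2 size factors, DESeq2 1.42.0, a fit of 4 libraries, a replicate block, each library left out, and Lyz1 and Lyz2 summed. Leaving out the genes Rn45s, Malat1, Xist and Tsix, and a crossed block, were added after seeing the data.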

Additional observations from a re-analysis of the deposited data

How the results depend on the processing

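For YG+ pDCs against PBS pDCs, the count of genes called went from 0 to 141 with no filter on low counts and 111 with DESeq2, and from 0 to 870 as each library was left out (870 without PBS pDC replicate 2, 14 without YG+ pDC replicate 2). Related genes called went from 0 to 7 with no filter (all higher in YG+ pDCs, among them Csf1r, Ctsd, F13a1, Mertk, Mrc1 and Vcam1), to 3 with DESeq2 and to 0 to 5 with a library left out. For PBS pDCs against PBS Sirpa+ DCs, 931 became 580 in the fit of the 4 libraries compared and 214 to 1297 with a library left out, and the 26 related genes became 8 to 29. For YG+ pDCs against PBS Sirpa+ DCs, 583 became 894 with no filter, 1480 in the fit of 4 libraries and 69 to 1487 with a library left out, and the 12 related genes became 22 in the fit of 4 libraries and 2 to 22 with a library left out. The cause was not tested. For the 8 genes, direction turned for Cd163 in YG+ pDCs against PBS pDCs (-1.93 to 0.017 with a library left out, 0.017 without PBS pDC replicate 1), for Cd163 in PBS pDCs against PBS Sirpa+ DCs (-1.06 to 0.88 with a library left out, -1.06 without PBS pDC replicate 1, and -0.063 with the replicate block) and for Siglec1 in YG+ pDCs against PBS Sirpa+ DCs (-1.68 to 0.44 with a library left out, above 0 without YG+ pDC replicate 2 or PBS Sirpa+ DC replicate 1).

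The labels give no pairing of the libraries. Across genes, deviations of same-numbered YG+ pDC libraries correlated at -0.12 with PBS pDCs and -0.10 with PBS Sirpa+ DCs. Those of the PBS pDC and PBS Sirpa+ DC libraries correlated at 0.30, and replicate 1 was the shallower library in both groups. With 2 libraries a group, these values cannot decide whether libraries were paired. The replicate block gave 0, 942 and 635 genes called and 0, 26 and 13 related genes, so each count of calls stayed within 1.5 times. A crossed pairing of YG+ pDCs and PBS pDCs, added after seeing the data, called 294 genes, 8 of them related. Depth limits the PBS pDC values of all members but Cd163, which rest on 1 to 33 counts over both libraries.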

Other observations

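Genes with the widest difference between the YG+ pDC libraries were listed after their values were seen, and no test was made. Mrc1, the macrophage mannose receptor, had 176 and 25.1 CPM in YG+ pDC replicates 1 and 2, 6.38 and 13.9 CPM in PBS pDCs and 148 and 97.7 CPM in PBS Sirpa+ DCs. Mertk, a receptor for uptake of dying cells, had 71.6 and 8.95 CPM in YG+ pDCs, no count in PBS pDCs and 46.5 and 57.8 CPM in PBS Sirpa+ DCs. Vcam1, an adhesion molecule of resident macrophages, had 173 and 46.5 CPM, 12.8 and 20.8 CPM, and 88.9 and 136 CPM. Sepp1, the selenium carrier selenoprotein P, had 740.2 and 217 CPM, 76.5 and 27.8 CPM, and 419 and 644 CPM. In each of these 4 genes, YG+ pDC replicate 1 was above both PBS Sirpa+ DC libraries, and replicate 2 lay below both of them. The 4 were picked from the ranked genes, at ranks 1, 3, 14 and 16, and genes ranked among them went either way. Abcc3 (rank 6) had the same order. Trpm2 (rank 2), at 63.2 CPM in YG+ pDC replicate 1, lay below both PBS Sirpa+ DC libraries (67.7 and 112 CPM). So did Itgb5 (rank 10), at 67.4 against 262 and 269 CPM.

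Values of a few genes below the filter are given next. F13a1, coagulation factor XIII subunit A, had 44 and 4 counts in YG+ pDCs, none in PBS pDCs and 0 and 6 in PBS Sirpa+ DCs. Spic, a transcription factor of red pulp macrophages, had 16 and 1, none, and 1 and 3 counts. Timd4, a phosphatidylserine receptor of resident macrophages, had 14 and 3, none, and 3 and 11 counts, and its highest level was in PBS Sirpa+ DC replicate 2 (21.9 CPM). The complement gene C4b had 21 counts in YG+ pDC replicate 1 and none in the other 5 libraries. The other C4 gene, C4a, had 0 and 6 counts in YG+ pDCs, none in PBS pDCs and 0 and 1 in PBS Sirpa+ DCs. The iron exporter Slc40a1 had 39 and 8 counts in YG+ pDCs, 0 and 5 in PBS pDCs and 0 and 4 in PBS Sirpa+ DCs. Genes more than 3-fold higher in YG+ pDC replicate 2 instead included Bcl11a, a transcription factor of pDCs, at 52.0 against 166 CPM, and Il1rn, the interleukin-1 receptor antagonist, at 11.2 against 51.9 CPM.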
